A study of Oncorhynchus mykiss with 14 samples.

Results

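The let-7 family of microRNAs (miRNAs) was followed through adipocytes of 3 fat depots of rainbow trout. The members were all entries of the count table whose name begins with ssa-let-7 or ssa-miR-98 and that were above 0 in at least 4 of 14 libraries. The rule found 10 members among 899 entries: ssa-let-7a-5p, ssa-let-7b-5p, ssa-let-7c-5p, ssa-let-7d-5p, ssa-let-7e-5p, ssa-let-7f-5p, ssa-let-7g-5p, ssa-let-7h-5p, ssa-let-7i-5p and ssa-let-7j-5p. The prefix is that of Atlantic salmon, 5p is the arm of the precursor, and both are left off from here on. There was no entry for miR-98, and no let-7 entry was lost to the threshold. The member nearest to it, let-7f, was above 0 in 9 libraries, and the other 9 members were above 0 in all 14.

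let-7 was among the earliest miRNAs to be described, as a regulator of developmental timing in the worm Caenorhabditis elegans, and is conserved across animals. Its forms share the seed, the stretch near the 5′ end that pairs with target mRNAs, and differ at a few bases outside it. In mammals they accumulate as cells differentiate, while the RNA-binding protein LIN28 blocks the maturation of their precursors. Known mammalian targets include the growth regulator HMGA2 and genes of insulin and IGF signalling, and in mouse preadipocytes let-7 rises as fat cells form and restrains HMGA2.

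The libraries are small-RNA counts from mature adipocytes, the cells that store fat, of adult Oncorhynchus mykiss: 5 libraries of intramuscular fat (IMAT, replicates 1 to 5), 5 of subcutaneous fat (SAT, replicates 1 to 5) and 4 of visceral fat (VAT, replicates 1, 3, 4 and 5). All fish were untreated, kept in fresh water at 15 °C with 12 h of light, and fasted for 24 h, and the labels give neither strain, sex nor age beyond adult. Cells were released with collagenase type II. Whether each library is a fish of its own, or whether same-numbered libraries of different depots share a fish, is not in the labels. The p-values rest on a spread between libraries that may be technical.

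Libraries held 759369 to 11843805 summed counts in IMAT, 2060776 to 4042846 in SAT and 4525742 to 11076843 in VAT. miRNAs made in muscle (miR-1, miR-133, miR-206 and miR-499, 9 entries; miR-208 had none) took 65.5 to 89.6% of the counts in IMAT, 3.37 to 11.9% in SAT and 0.0888 to 4.65% in VAT. Entries of miR-1, and likewise entries of miR-133a, carried counts within 2 reads or 10% of each other and are taken as the same reads. Such reads count repeatedly in the muscle share and in the total. The endothelial miR-126 took 0.506 to 1.40%, 5.21 to 8.24% and 1.23 to 4.37% in the same order. The lists for epithelia and skin, white blood cells, gut and liver, and red blood cells each stayed at or below 0.163% in every library, with no entry for miR-451, miR-223 or miR-141. No miRNA is restricted to adipocytes. Those that are abundant in them but not restricted to them (miR-103, miR-107, miR-143 and miR-30; no entry for miR-378) took 0.469 to 2.77% in IMAT, 2.18 to 3.22% in SAT and 2.17 to 7.07% in VAT. Both arms of miR-30c and both of miR-30d enter this sum, although the arms of each carried near-equal counts. In VAT 4, the highest library, each of these arms took 0.959 to 1.02% of the counts. In bulk libraries, more cells that make a miRNA and more of it per cell cannot be told apart. IMAT 5 and VAT 4 stood apart from the other libraries of their depots in let-7 and are given with and without below. They were picked after their let-7 values were seen. Calls and p-values for let-7 without them are therefore descriptive and add no support.

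The summed share of let-7 depended on how the muscle miRNAs were counted: it was lowest in IMAT with them in the total, and the 3 depots overlapped without them. The 10 members together took 1.80, 1.32, 1.48, 1.92 and 5.47% of the counts in IMAT 1 to 5, 10.2, 11.3, 9.56, 10.1 and 8.70% in SAT 1 to 5, and 9.24, 7.17, 19.8 and 6.44% in VAT 1, 3, 4 and 5. Every IMAT library lay below every SAT and VAT library, and VAT 4 was the highest of all. This separation did not hold when entries with near-equal counts, taken as the same reads, were joined into 1. IMAT 1 to 4 then had 3.81, 2.92, 3.13 and 3.57%, and IMAT 5 had 9.36%. IMAT 5 lay above SAT 5 (9.26%), VAT 3 (7.56%) and VAT 5 (6.59%) in that count. With no entries joined, the depot means were 2.40 ± 1.73% in IMAT (SD, n = 5), 9.96 ± 0.934% in SAT (n = 5) and 10.7 ± 6.22% in VAT (n = 4). Without IMAT 5 and VAT 4 these means were 1.63% in IMAT and 7.62% in VAT.

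With muscle miRNAs outside the total, the same reads were 11, 12.7, 9.65, 9.32 and 15.9% in IMAT 1 to 5, 11.1, 12.3, 10.9, 10.4 and 9.21% in SAT 1 to 5, and 9.27, 7.52, 19.8 and 6.44% in VAT 1, 3, 4 and 5. The 3 depots then overlapped, with means of 11.7 ± 2.68%, 10.8 ± 1.13% and 10.8 ± 6.16%. Exact Clopper-Pearson 95% intervals of these shares reached at most 0.0414 percentage points to either side of the share of all counts and 0.145 of the share without muscle miRNAs. They cover counting error only, because reads of an amplified library are not independent molecules.

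**Figure D1:**
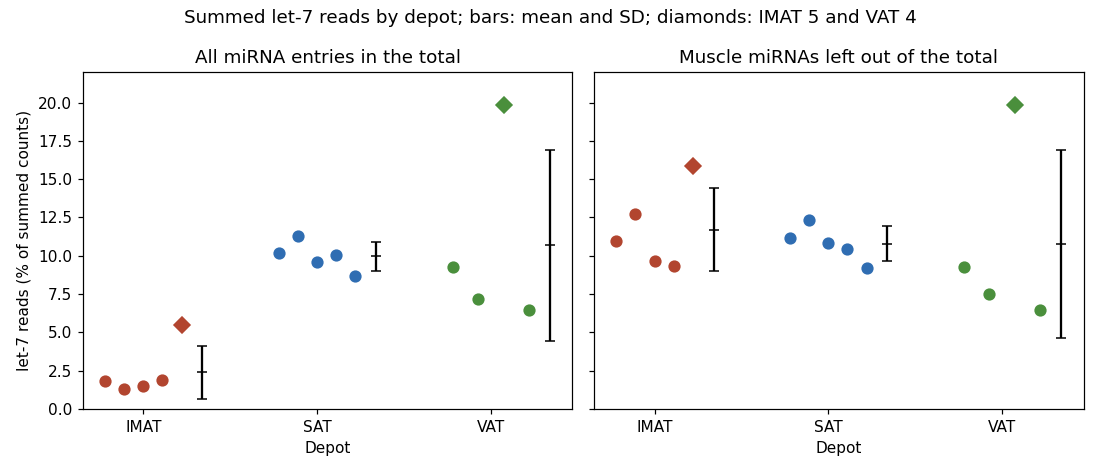
Summed let-7 reads as a percentage of a library's summed counts, by depot, with all miRNA entries in the total (left) and with muscle miRNAs left out (right); each point is a library, diamonds are IMAT 5 and VAT 4, and bars show the mean and SD. IMAT libraries lie at 1.32 to 5.47% on the left and at 9.32 to 15.9% on the right, where the depots overlap.

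let-7a and let-7e together made up 71.6 to 87.1% of the let-7 reads in IMAT, 81.0 to 85.0% in SAT and 81.2 to 90.9% in VAT. These proportions within the family do not depend on any scaling between libraries. let-7a, in mammals the form identical to the let-7 of the worm, was 33.3 to 56.5% of the let-7 reads in IMAT, 47.8 to 53.6% in SAT and 31.6 to 45.3% in VAT. let-7e was 19.4 to 53.8% in IMAT, 29.3 to 34.3% in SAT and 36.6 to 54.9% in VAT. Reads of let-7e outnumbered those of let-7a in IMAT 5 alone among the IMAT libraries, in no SAT library, and in VAT 1, VAT 4 and VAT 5 but not VAT 3. Per library, let-7e had 0.418, 0.343, 0.648, 0.496 and 1.62 reads per let-7a read in IMAT 1 to 5, 0.566, 0.588, 0.611, 0.703 and 0.703 in SAT 1 to 5, and 1.17, 0.808, 1.52 and 1.57 in VAT 1, 3, 4 and 5. Every VAT library lay above every SAT library in this ratio, while IMAT reached from below SAT to above VAT.

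let-7c and let-7b made up a smaller part of the let-7 reads in VAT than in IMAT or SAT. let-7c made up 2.72, 1.99, 2.07, 2.28 and 1.41% of the let-7 reads in IMAT 1 to 5, 3.05, 2.43, 2.41, 2.28 and 2.21% in SAT 1 to 5, and 0.381, 0.548, 0.639 and 0.497% in VAT 1, 3, 4 and 5. The highest VAT library was below the lowest IMAT and SAT libraries. let-7b made up 2.02 to 6.43% in IMAT, 2.42 to 4.0% in SAT and 0.716 to 1.35% in VAT, again with VAT apart from both. The sum of let-7b and let-7c was 6.22 ± 1.98% of the let-7 reads in IMAT, 5.58 ± 0.922% in SAT and 1.63 ± 0.407% in VAT (SD, n = 5, 5 and 4). For each let-7c read there were 8.37 to 38.2 let-7e reads in IMAT, 9.61 to 15.2 in SAT and 66.7 to 125 in VAT.

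Set against the let-7 reads of the library, 2 of 10 members (let-7b and let-7c) had IMAT and VAT libraries that did not overlap, where 15.3% of the 327 entries tested had none when measured in the same way. Between IMAT and SAT it was 0 of 10 members against 13.1% of entries, and between SAT and VAT 4 of 10 (let-7a, let-7b, let-7c and let-7e) against 15.3%. The members are parts of 1 sum, mostly let-7a and let-7e, so a larger part of either goes with a smaller part of the other. Entries outside the family do not enter the sum that divides them, so the 2 sides are not fully alike. The other members kept smaller parts: let-7i was 5.12 to 11% in IMAT, 4.42 to 6.37% in SAT and 1.79 to 10.2% in VAT, and let-7g was 1.90 to 8.28%, 3.30 to 4.0% and 1.32 to 5.81%. let-7d was 1.09 to 2.09%, 1.36 to 2.49% and 0.875 to 3.67%, and let-7h 0.340 to 1.35%, 0.399 to 0.574% and 0.230 to 0.759% in the same order. let-7j and let-7f reached at most 0.0613% and 0.0549%. The exact 95% intervals of a member's part reached at most 0.815 percentage points to either side in IMAT 4, the shallowest library, and 0.504 in the others.

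**Figure D2:**
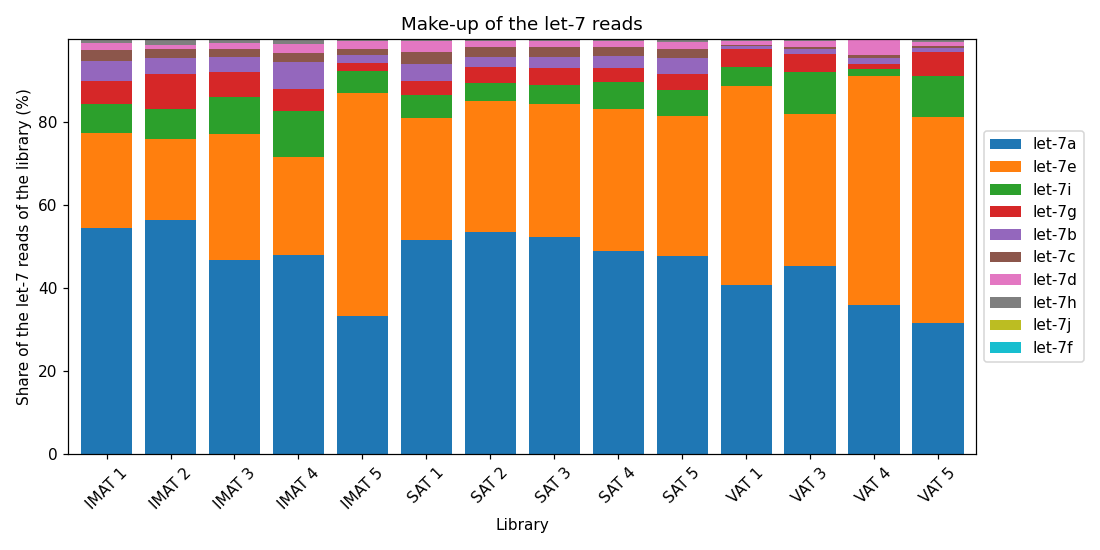
Make-up of the let-7 reads of each library: the stacked bars give the percentage of the library's let-7 reads listed under each member. let-7e takes 53.8% in IMAT 5 and 54.9% in VAT 4, and the let-7b and let-7c bands are thinnest in the 4 VAT libraries.

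Levels between libraries were set by TMM, which scales each library by the trimmed mean of its log ratios, and are given as TMM-scaled CPM, counts scaled to a common library total. Differences are log2 fold changes ± SE from the quasi-likelihood test of edgeR fitted to all 327 entries above 0 in at least 4 libraries, and a call is a Benjamini-Hochberg adjusted p under 0.05 over these entries. All members are listed with a length of 22 nt, so scaling by length would not alter their order. How evenly different let-7 sequences are captured and read was not tested. In IMAT the order of means was let-7a (19585 ± 7013), let-7e (14924 ± 15584), let-7i (3047 ± 635), let-7g (2068 ± 965), let-7b (1549 ± 348), let-7c (844 ± 284), let-7d (736 ± 517), let-7h (360.3 ± 143), let-7j (19.4 ± 9.32) and let-7f (n = 5). SAT had the same order of means. Between neighbours in this order, the ranges over libraries parted between the pair of let-7a and let-7e and the rest, and between let-7h and let-7j in all 3 depots, and in SAT also between let-7d and let-7h and between let-7j and let-7f, while all other neighbours overlapped. In VAT let-7e (36653 ± 25780.4) stood before let-7a (27948 ± 15682) and let-7d (1624 ± 2108) before let-7b (825 ± 623), both within overlapping ranges (n = 4).

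**Figure D3:**
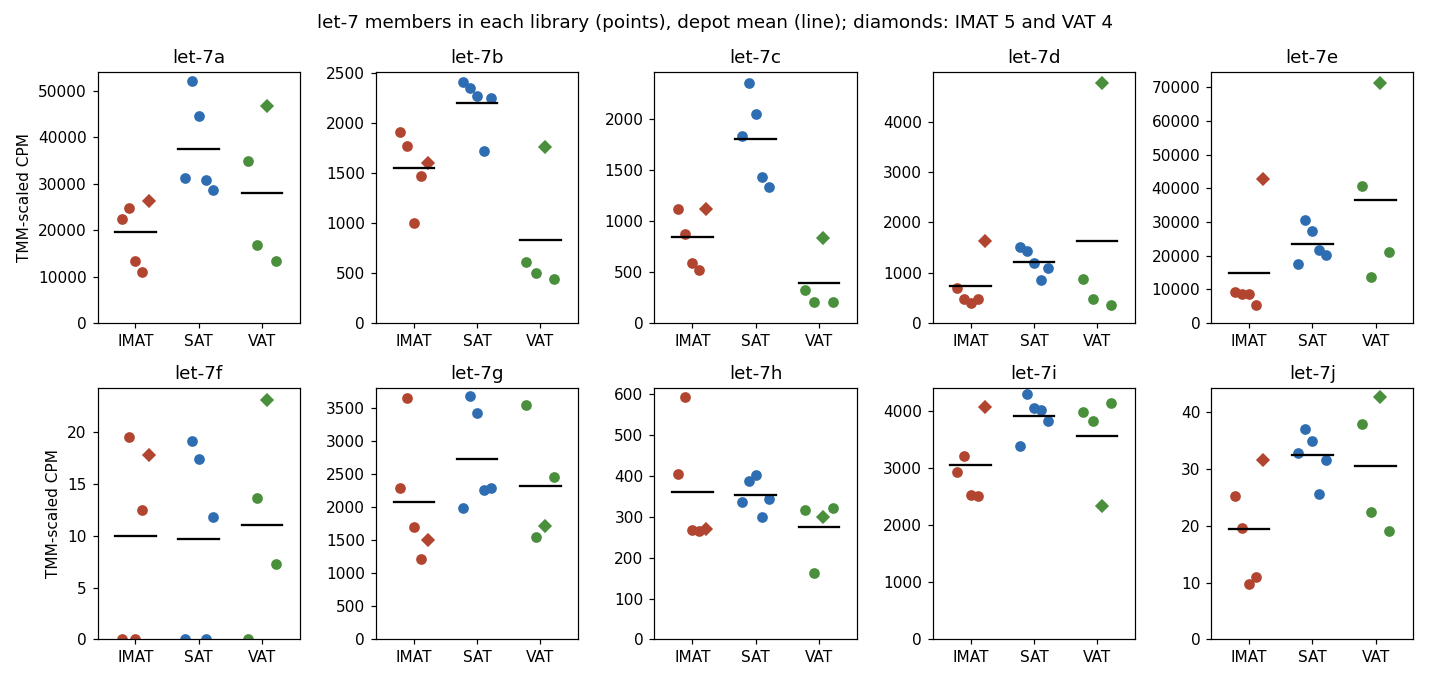
TMM-scaled CPM of the 10 let-7 members in IMAT, SAT and VAT on linear axes from 0; each point is a library, lines are depot means and diamonds are IMAT 5 and VAT 4. All 5 SAT libraries of let-7c lie above the 4 VAT libraries, and VAT 4 holds the highest let-7d, at 4769.6 CPM.

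The contrast of SAT with VAT sets fat under the skin against fat of the body cavity. let-7c and let-7b were called higher in SAT, and no member was called lower. In mammals let-7c is transcribed together with miR-99a and a form of miR-125b, and let-7b lies in a cluster with a copy of let-7a. let-7c had 1836, 2356, 2055, 1438 and 1330.2 CPM in SAT 1 to 5, against 325, 204, 830.2 and 210.5 CPM in VAT 1, 3, 4 and 5. The groups did not overlap, although VAT 4 reached well above the other VAT libraries. The log2 fold change was 2.20 ± 0.47 (edgeR, adjusted p = 0.0067), higher in 5 of 5 SAT libraries than in any VAT library, and it stayed a call in 25 of 25 alternatives (adjusted p = 1e-05 to 0.027).

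let-7b had 2409, 2349.7, 2262, 1718 and 2244 CPM in SAT 1 to 5, against 609, 503, 1753 and 436 CPM in VAT 1, 3, 4 and 5. Here VAT 4 lay above SAT 4, and the other 3 VAT libraries lay below all SAT libraries. The log2 fold change was 1.41 ± 0.41 (edgeR, adjusted p = 0.039). Only 13 of 25 alternatives kept this call, and all gave a higher value in SAT (1.04 to 1.75, adjusted p = 0.00013 to 0.14). The call was lost with library totals, median-ratio scaling, totals without muscle miRNAs, no filter and the fit of only both depots. The same held with the replicate number as a block (1.56, edgeR adjusted p = 0.075). It was also lost without VAT 1, VAT 5, SAT 2, SAT 3, SAT 4 or SAT 5, where the log2 fold change still ran from 1.20 to 1.49.

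In all, 2 of 10 members were called between SAT and VAT, both higher in SAT, where 12.5% of all entries were called, 7.34% higher and 5.2% lower. Only let-7c had libraries that did not overlap, against 16.2% of entries. The median log2 fold change was 0.19 over the members and -0.046 over all entries. Shares of other cell types moved between the same libraries (3.37 to 11.9% in SAT and 0.0888 to 4.65% in VAT for muscle, 5.21 to 8.24% and 1.23 to 4.37% for miR-126, and 0.00785 to 0.0165% and 0.0493 to 0.0697% for the gut and liver list of miR-122, miR-192 and miR-194), and their part in the let-7 result was not tested. With muscle miRNAs outside the totals, let-7c was higher in SAT by 2.19 ± 0.43 (adjusted p = 0.0053), the single member called, where 4.59% of entries were called higher and 3.98% lower. With library totals let-7c was likewise the single member called (2.08), where 5.81% of entries were called higher and 4.28% lower.

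The remaining 8 members did not pass between SAT and VAT. let-7e, in mammals the neighbour of miR-99b and miR-125a, had 17639, 30561, 27261, 21594 and 20182 CPM in SAT 1 to 5, against 40682, 13608, 71318 and 21004 CPM in VAT 1, 3, 4 and 5. VAT libraries lay both above and below the SAT range, and the difference of -0.64 ± 0.61 had a 95% interval of -1.96 to 0.67 (adjusted p = 0.63). let-7a differed by 0.42 ± 0.43 (-0.49 to 1.34), with 28716 to 52008 CPM in SAT and 13360.1 to 46786 CPM in VAT. let-7d had 858 to 1503 CPM in SAT, against 868, 489, 4769.6 and 370.1 CPM in VAT 1, 3, 4 and 5, so that VAT 4 lay above SAT, VAT 1 just inside its range and the other 2 below it. Its difference was -0.42 ± 0.68 (adjusted p = 0.81), but it was 0.80 ± 0.23 without IMAT 5 and VAT 4 (adjusted p = 0.030; 0.030 to 0.97 over all alternatives), which is a call in the other direction. Without these 2 libraries 3 members were called higher in SAT (let-7b by 1.75, let-7c by 2.55 and let-7d), where 17.7% of all entries were called. The 2 libraries were picked by their let-7 values, so these calls are descriptive only.

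let-7g, let-7h, let-7i and let-7j made no call between SAT and VAT: the log2 fold changes were 0.24 ± 0.38, 0.36 ± 0.33, 0.13 ± 0.26 and 0.086 ± 0.44, with adjusted p between 0.61 and 0.95. Their 95% intervals were -0.59 to 1.06, -0.35 to 1.08, -0.44 to 0.70 and -0.86 to 1.03, so a missed threshold does not show equal levels. With DESeq2, whose size factors put the median of all entries at -0.44 in place of -0.046, the 4 values turned negative with no call.

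The contrast of IMAT with VAT sets fat inside muscle against fat of the body cavity. Here 7 let-7 members, among them let-7f, had lower and 3 higher values in IMAT by TMM. The median log2 fold change was -0.19 over the members and -0.60 over all entries. With TMM none of the 10 members was called by edgeR, while 13.5% of all entries were (7.65% higher and 5.81% lower in IMAT). No member had IMAT and VAT libraries without overlap in level, against 15% of entries. At an unadjusted p under 0.05 there were 2 members, let-7c and let-7b, both higher in IMAT. DESeq2 called 3 members, let-7b and let-7c higher (0.90 and 1.09) and let-7e lower (-1.37), and 26.9% of all entries. It gave let-7d no adjusted p in any of the comparisons. Entries without an adjusted p count as not called, here and in all counts of alternatives. let-7c had 1121, 877, 587, 520.0 and 1116 CPM in IMAT 1 to 5, against 325, 204, 830.2 and 210.5 CPM in VAT 1, 3, 4 and 5. Apart from VAT 4, all VAT libraries lay below IMAT, and the difference was 1.11 ± 0.45 (edgeR adjusted p = 0.11). It was called in 11 of 25 alternatives, each time higher in IMAT (adjusted p over all of them 0.00037 to 0.51). Among these, leaving out VAT 3, VAT 4, SAT 1, IMAT 1, IMAT 2, IMAT 3 or IMAT 4 gave a call, at up to 1.84 without VAT 4.

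let-7b had 1906, 1767, 1001, 1466 and 1603 CPM in IMAT 1 to 5, against 609, 503, 1753 and 436 CPM in VAT 1, 3, 4 and 5, with VAT 4 inside the IMAT range and the other VAT libraries below it. Its difference was 0.91 ± 0.41 (edgeR adjusted p = 0.13), called in 7 of 25 alternatives, among them those without VAT 3, VAT 4, SAT 1 or IMAT 3 (up to 1.63 without VAT 4). let-7e had 9376, 8535, 8629, 5414 and 42668 CPM in IMAT 1 to 5, against 40682, 13608, 71318 and 21004 CPM in VAT 1, 3, 4 and 5. IMAT 5 reached the level of the higher VAT libraries, and the other 4 IMAT libraries lay below all of VAT. The difference of -1.30 ± 0.61 did not pass (adjusted p = 0.16), and with 1 library left out it ran from -2.20 without IMAT 5 (edgeR adjusted p = 0.0063) to -0.62 without VAT 4 (adjusted p = 0.42). Without IMAT 5 and VAT 4 the 3 members were called, let-7b at 1.64 ± 0.22, let-7c at 1.74 ± 0.24 and let-7e at -1.47 ± 0.24 (edgeR adjusted p = 0.00035, 0.00037 and 0.0012), where 31.2% of all entries were. Over all alternatives the adjusted p ran to 0.31, 0.51 and 0.55. IMAT 5 and VAT 4 were left out for their let-7 values, so the p-values without them are descriptive only.

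The direction of 8 of 10 members between IMAT and VAT changed with the scaling, and let-7d and let-7e had lower values in IMAT under all 3. With library totals, in which muscle miRNAs fill 65.5 to 89.6% of IMAT, all 10 members had lower values in IMAT and 7 were called lower (let-7a, let-7d, let-7e, let-7g, let-7h, let-7i and let-7j), where 44% of all entries were called lower and 5.5% higher, and the median over all entries was -1.98. With muscle miRNAs outside the totals, 3 members were called higher, let-7b (1.86), let-7c (2.01) and let-7h (1.39), where 17.4% of all entries were called higher and 1.83% lower, and their median was 0.30. The median of the members was -1.69 with library totals, -0.19 with TMM, where that of all entries was -0.60, and 0.65 with muscle miRNAs left out. let-7c had a log2 fold change of -0.36 with library totals, and let-7e had -2.55 with library totals, -1.30 with TMM and -0.51 with muscle miRNAs left out. The muscle share and the library totals here count reads carried by several entries repeatedly. The part of muscle cells in both comparisons with IMAT was not tested.

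The other members with TMM were let-7a at -0.51 ± 0.42, let-7d at -1.14 ± 0.68, let-7g at -0.16 ± 0.38, let-7h at 0.39 ± 0.33, let-7i at -0.22 ± 0.26 and let-7j at -0.64 ± 0.44 (edgeR adjusted p = 0.26 to 0.80). let-7h, a form named in fish, had 266 to 594 CPM in IMAT and 164 to 321 CPM in VAT, and the scarce let-7j had 9.75 to 31.6 and 19.1 to 42.6 CPM. let-7d had 689.8, 481, 393, 478 and 1639.6 CPM in IMAT 1 to 5, of which IMAT 5 was the highest. Set beside the VAT values above, both depots had a single library that stood over the rest in let-7d. Without VAT 4 the let-7d difference was 0.45 in place of -1.14, neither of them a call.

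**Figure D4:**
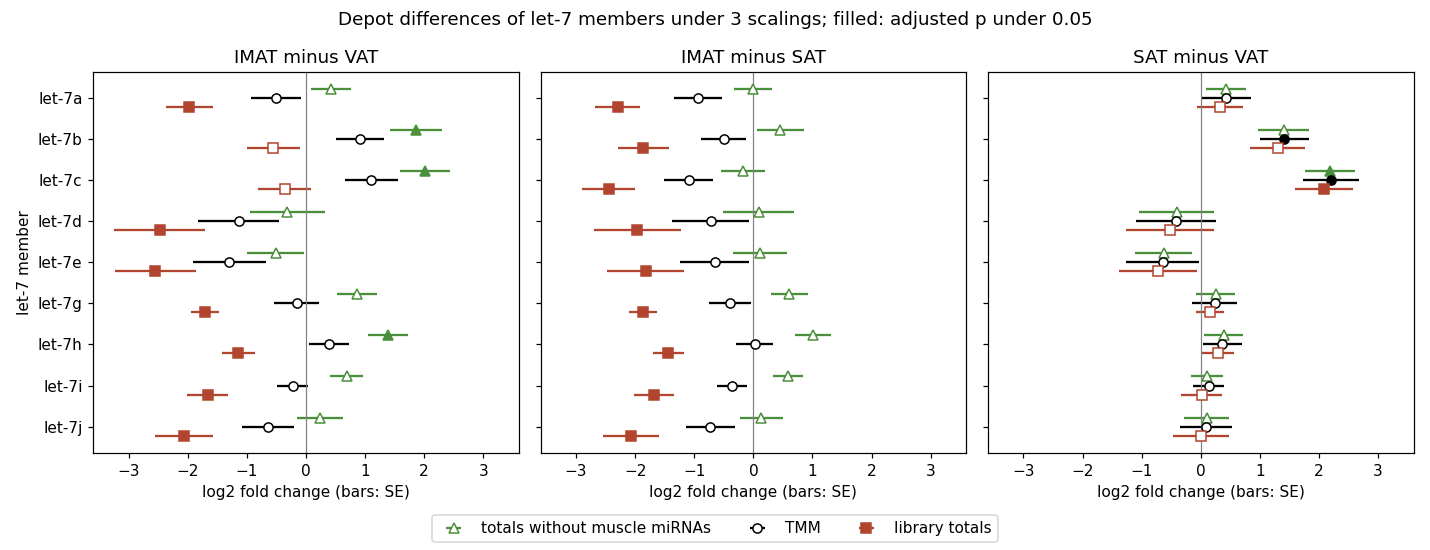
Log2 fold changes of 9 let-7 members (let-7f left out, listed at 0 in 5 libraries) for the 3 depot comparisons under 3 scalings; bars are SE and filled symbols have an edgeR adjusted p under 0.05. The 3 symbols of a member lie apart in both comparisons with IMAT and close together between SAT and VAT, where let-7c is filled under each.

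Between IMAT and SAT, fat of the muscle and fat under the skin, no member was called with TMM. By TMM-scaled level, 2 of 10 members (let-7a and let-7c) lay lower in every IMAT than in any SAT library, beside 18.7% of entries without overlap. In level, 8 of 10 members had lower values in IMAT, and edgeR called 0 (2 at an unadjusted p under 0.05, let-7a and let-7c, and 0 by DESeq2), while 6.73% of all entries were called (3.67% higher and 3.06% lower in IMAT). let-7c had 1121, 877, 587, 520.0 and 1116 CPM in IMAT 1 to 5, against 1836, 2356, 2055, 1438 and 1330.2 CPM in SAT 1 to 5, with no overlap (-1.09 ± 0.42, edgeR adjusted p = 0.12). let-7a had 22448, 24865, 13309, 10921 and 26383 CPM in IMAT 1 to 5, against 31163, 52008, 44627, 30738 and 28716 CPM in SAT 1 to 5, also with no overlap (-0.94 ± 0.40, adjusted p = 0.15). These were 2 of 10 members without overlap, against 18.7% of all entries. With muscle miRNAs outside the total both overlapped. let-7a then had 44613 to 71944 CPM in IMAT and 44039 to 65904 CPM in SAT, and let-7c 1994 to 2988 and 2040 to 3394 CPM. The median over the members was -0.58 and that over all entries -0.43.

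With library totals 9 members were called lower in IMAT than in SAT, all but let-7f, where 37.9% of entries were called lower and 2.14% higher, and the median over all entries was -1.81. When muscle miRNAs did not count towards the totals, 0 were called, the differences of the 9 members other than let-7f ran between -0.18 for let-7c and 1.01 for let-7h, and the median over the members was 0.30 against 0.52 over all entries, of which 8.87% were called higher and 1.22% lower. let-7e had -0.65 ± 0.58 with TMM (adjusted p = 0.54), and with 1 library left out it ran from -1.55 without IMAT 5 (edgeR adjusted p = 0.040) to -0.095 without IMAT 4 (adjusted p = 0.99). Without IMAT 5 and VAT 4, let-7c (-0.81 ± 0.20), let-7d (-0.84 ± 0.21) and let-7e (-1.14 ± 0.22) were called lower in IMAT (edgeR adjusted p = 0.017, 0.017 and 0.0041; over all alternatives up to 0.83, 1.00 and 1.00), where 18.7% of all entries were called. The values without IMAT 5 and VAT 4 are again descriptive only. The 3 comparisons share their libraries in pairs, so their values are not independent of each other.

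let-7f, whose mammalian form is close in sequence to let-7a and is abundant in many mammalian tissues, had the fewest reads of the family. It had 0, 26, 0, 8 and 145 reads in IMAT 1 to 5, 0, 83, 79, 0 and 66 in SAT 1 to 5, and 0, 119, 235 and 122 in VAT 1, 3, 4 and 5. In 4 of the 5 libraries listed at 0, at least 20 reads would be due if let-7f took the lowest share above 0 seen in that depot, so these zeros lie beyond counting error. The fitted log2 fold changes of let-7f enter the counts over 10 members but are not read as differences. No other member had such a zero. How reads were divided between entries that differ at a few bases is not stated in the labels or headers, so the split between near-identical members is uncertain. No member carried counts within 2 reads or 10% of another entry in every library where both were above 0.

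Members differed in how steady their ratios were across the 14 libraries. Over the 36 pairs of the 9 members above 0 in every library, the log2 ratio of reads varied least for let-7a and let-7j (SD 0.322), let-7g and let-7h (0.365), and let-7b and let-7c (0.440). It varied most for let-7c and let-7e (SD 1.41), let-7b and let-7e (1.32), and let-7c and let-7i (1.16). These are descriptions over libraries of all 3 depots, which share their depth within a library.

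let-7 genes of vertebrates often lie in clusters with miR-99 or miR-100 and miR-125, which have been conserved with let-7 since early animals. The table held 5 entries of these numbers, called partners here by number alone. Whether they lie near let-7 genes in trout was not checked. Between SAT and VAT 3 of the 5 were called higher in SAT, where 7.34% of all entries were: miR-99, miR-125a and miR-125b. The median over the 5 was 1.53, beside -0.046 over all entries. miR-99 had 12986, 19977, 19144, 11550.5 and 11480.3 CPM in SAT 1 to 5, against 1508, 859, 1416 and 954 CPM in VAT 1, 3, 4 and 5, a difference of 3.67 ± 0.35 (edgeR adjusted p = 2.5e-05). Every SAT library lay far above every VAT library, and this call stayed in 25 of 25 alternatives. miR-125a averaged 10335 ± 2897 CPM in SAT and 2299.9 ± 1023 CPM in VAT (2.17 ± 0.45, adjusted p = 0.0058), and miR-125b 3236 ± 897 and 1119.7 ± 406 CPM (1.53 ± 0.41, adjusted p = 0.028; SD, n = 5 and 4). miR-125b was a call in 19 of 25 alternatives, not with median-ratio scaling (1.12, edgeR adjusted p = 0.057) or no filter (1.24, adjusted p = 0.17). It was no call either without VAT 5, SAT 1, SAT 2 or SAT 3 (1.15 to 1.51 in these fits). miR-100a, the neighbour of a let-7a copy in mammals, did not pass (0.71 ± 0.58, adjusted p = 0.57), with 77023 to 126081 CPM in SAT and 65737, 18218, 138058 and 17210.3 CPM in VAT 1, 3, 4 and 5.

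Between IMAT and SAT the same 3 entries were called lower in IMAT (median over the 5, -1.73, beside -0.43 over all entries, of which 3.06% were called lower): miR-99 at -1.79 ± 0.30, miR-125a at -1.73 ± 0.41 and miR-125b at -1.96 ± 0.38 (edgeR adjusted p = 0.0062, 0.018 and 0.0089). When muscle miRNAs did not count towards the totals, these 3 missed the threshold (-0.78, -0.68 and -0.97, adjusted p = 0.070, 0.32 and 0.15, the highest over their alternatives). With no filter miR-125a and miR-125b also missed it (-1.31 and -1.55, adjusted p = 0.15 and 0.069). The miR-125a call was also lost with median-ratio scaling (-1.31, edgeR adjusted p = 0.051). It was lost too without SAT 1, SAT 2, SAT 3, IMAT 2, IMAT 3 or IMAT 4 (-1.64 to -1.30 in these fits). Between IMAT and VAT 1 of the 5 was called, where 7.65% of all entries were called higher: miR-99, higher in IMAT by 1.88 ± 0.33 (adjusted p = 0.0012), which was not a call with library totals (0.43, adjusted p = 0.23, the highest over its alternatives). miR-100a did not pass in either comparison with IMAT (-1.08 ± 0.55 against SAT and -0.38 ± 0.57 against VAT). The means of let-7c, miR-99, miR-125a and miR-125b were highest in SAT. The 3 partners among them were picked by their calls, so this order is no further result. IMAT lay over VAT for let-7c, miR-99 and miR-125a, and VAT over IMAT for miR-125b. Among the partners without a call in SAT, miR-100a also had its highest mean there (97755 CPM). The scarce miR-125a-2-3p did not (50.3 CPM in IMAT, 49.3 CPM in SAT and 19.9 CPM in VAT). For each let-7c read there were 3.53 to 6.64 miR-99 reads in IMAT, 7.07 to 9.32 in SAT and 1.71 to 4.65 in VAT. Every SAT library lay above all others in this ratio. Both had been called higher in SAT than in VAT. The share of all entries with such a ratio was not counted, so this is no further result. miR-125b followed another order, with 0.422 to 1.32 reads for each let-7c read in IMAT, 1.59 to 2.22 in SAT and 1.67 to 5.38 in VAT.

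**Figure D5:**
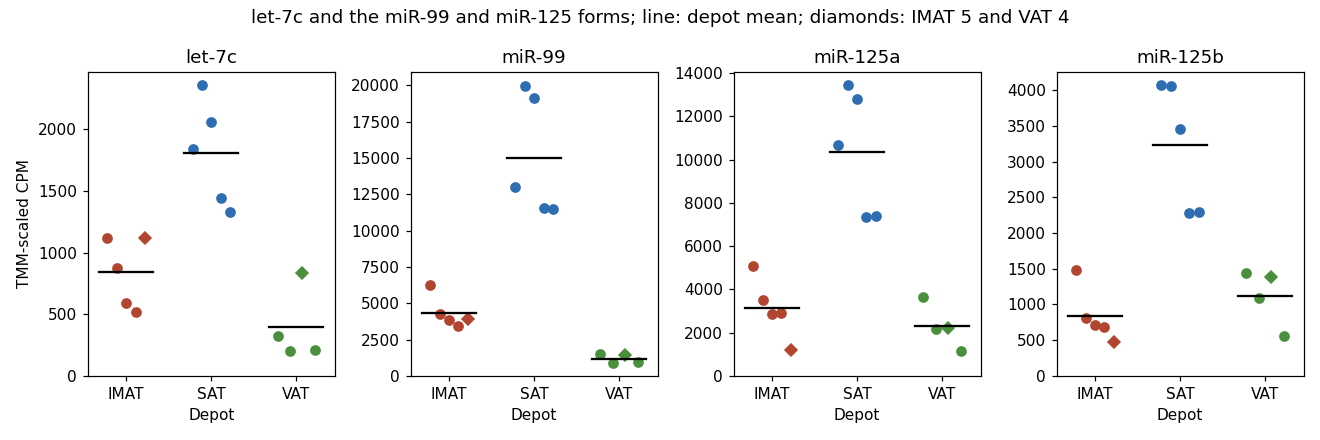
TMM-scaled CPM of let-7c and of miR-99, miR-125a and miR-125b by depot; each point is a library, lines are depot means and diamonds are IMAT 5 and VAT 4. Each entry shown was called higher in SAT than in VAT, and SAT libraries are the highest in each panel, with miR-99 at 11480.3 to 19977 CPM.

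The numbers of miRNAs reported to repress LIN28 in mammals (miR-125, miR-9, miR-30, miR-181 and miR-26) had 19 entries, all of them tested. The list goes by number alone, so it may hold arms of a precursor other than the reported ones. Both arms of miR-30c and both of miR-30d carried counts within 2 reads or 10% of each other. The 3p arms of miR-9a and miR-9b held the same count in 12 of 14 libraries, so they are not separate measurements. Between IMAT and VAT, 1 was called higher, miR-26d (5.95 ± 0.70, edgeR adjusted p = 0.00013), and 2 lower, the 3p arms of miR-9a (-2.73 ± 0.51, 0.0024) and miR-9b (-2.77 ± 0.60, 0.0063), where 7.65% of all entries were called higher and 5.81% lower. With no filter the miR-9b call was lost (-2.41, edgeR adjusted p = 0.059). The 5p arm of miR-9a was not called between IMAT and VAT (-4.95 ± 1.92, edgeR adjusted p = 0.10). Nor were miR-26a (0.51 ± 0.40, adjusted p = 0.41) and miR-26b (-0.097 ± 0.40, adjusted p = 0.88). Against SAT, miR-26a and miR-26b were not called either (-0.38 and -0.45, edgeR adjusted p = 0.59 and 0.51). Between IMAT and SAT, miR-26d was called higher (4.19 ± 0.58, adjusted p = 0.0018) and miR-125a and miR-125b lower, as above, beside 3.67% of all entries higher and 3.06% lower. Between SAT and VAT miR-125a and miR-125b were called higher, beside 7.34% of all entries. The medians over the 19 were -0.50, -0.42 and -0.18, beside -0.60, -0.43 and -0.046 over all entries, for IMAT minus VAT, IMAT minus SAT and SAT minus VAT.

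Among the 142 other named entries above 0 in all 14 libraries, the patterns most like the summed let-7 level were those of miR-130a-5p (Pearson r = 0.88 of log2(TMM-scaled CPM + 1) over 14 libraries) and the entries miR-25-3p and miR-25-3-3p (r = 0.85 each), which carry the same reads. VAT 4 was the highest library of miR-130a-5p, at 946 CPM, and without IMAT 5 and VAT 4 the r values were 0.88 and 0.86. The least alike were miR-1338-5p (r = -0.58) and the 2 entries of the muscle miR-133a (r = -0.55 each). All libraries enter both sides of these values with the same scaling factor.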

How the data were processed

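Each library has 2 columns in the table: a count of reads per miRNA entry, which the authors deposited as whole numbers without scaling, and a value that the file header calls TPM. These second columns are deposited CPM values, since they equal the count as a share of the summed counts within 0.00500 (the first entry is missing from the divisor) and carry no length term. There were 2 more per-sample columns that match no sample label, not used here. The submitters' processing notes name Trimmomatic 0.30 and edgeR 3.4.6 but not what each did. The aligner, build and handling of reads that match several entries are not given in the sources used.

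Depots were taken from the sample titles. The members, lists and tests were chosen with earlier results of these data known. Counts were tested with edgeR 4.0.16 under R 4.3.3 (quasi-likelihood, TMM scaling, all 14 libraries in 1 fit, depot as the only term). The 327 of 899 entries above 0 in at least 4 libraries entered the two-sided tests, with Benjamini-Hochberg adjustment within a comparison and a threshold of 0.05. The SE is the log2 fold change divided by the root of its F value. The fitting script was tested on simulated data. No test was made over the family as a set, nor on shares, ratios or correlations.

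Linked entries, taken as the same reads, differed by no more than 2 reads or 10% in each library where both were above 0 (at least 4 libraries, with 20 reads in 1 of them). There were 52 such sets with 121 entries, none of them let-7. A zero lay beyond counting error where the lowest share above 0 in its depot gave at least 20 expected reads. Named beside the members were the 3 entries most and the 3 least like the summed let-7 level. Also named were the partner miRNAs (miR-99, miR-100 and miR-125) with a mean of at least 1000 CPM in a depot. Called miRNAs of the LIN28 list were named too, with some uncalled entries of the same numbers. Alternatives were median-ratio scaling, library totals, totals without muscle miRNAs, DESeq2 1.42.0, no filter or a stricter one, the replicate number as a block, only the depots compared, linked entries joined, entries with such zeros left out, each library left out in turn, and, chosen after seeing the data, IMAT 5 and VAT 4 left out together.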

Additional observations from a re-analysis of the deposited data

Results flagged for a closer look

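A library was singled out where the gap between it and the nearest library of its depot was a larger part of the depot's whole range than Dixon's 95% limit, which chance alone passes in about 1 of 20 groups. Over 66 groups of 4 or 5 libraries this held for 9. The groups reuse the same libraries and members, so they are not independent of each other. In IMAT it was IMAT 5 each time: its let-7 took 5.47% of the counts, where the nearest library had 1.92%. IMAT 5 had 42668 CPM of let-7e, where the nearest had 9376, and 1639.6 CPM of let-7d, where the nearest had 689.8. In SAT, let-7b in SAT 4 was low at 1718 CPM, where the nearest had 2244, and let-7c in SAT 1 was high at 3.05% of the let-7 reads, where the nearest had 2.43%. In VAT, VAT 4 had 4769.6 CPM of let-7d, where the nearest had 868, and 3.67% of its let-7 reads under let-7d, where the nearest had 1.31%. VAT 4 also had 1753 CPM of let-7b, where the nearest had 609. let-7h in VAT 3 was low at 164 CPM, where the nearest had 299.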

How the results depend on the processing

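Over the 30 log2 fold changes of let-7 members and 747 alternatives, 603 kept direction and side of the threshold, 40 passed it newly, 12 no longer passed it and 92 turned, 3 of the last past the threshold; let-7c stayed higher in SAT than in VAT as a call in all 25, and the causes were not tested. The values below are those that moved: calls over all entries (main counts 44 for IMAT minus VAT, 22 for IMAT minus SAT and 41 for SAT minus VAT), let-7 calls (main counts 0, 0 and 2) and the log2 fold changes that turned. With library totals there were 162 calls, 7 let-7 calls, let-7b at -0.56, let-7c at -0.36, let-7h at -1.15 for IMAT minus VAT, 131 calls, 9 let-7 calls, let-7f at -1.06, let-7h at -1.44 for IMAT minus SAT and 1 let-7 call for SAT minus VAT. With totals without muscle miRNAs there were 3 let-7 calls, let-7a at 0.42, let-7f at 0.61, let-7g at 0.87, let-7i at 0.69, let-7j at 0.24 for IMAT minus VAT, let-7b at 0.46, let-7d at 0.089, let-7e at 0.11, let-7g at 0.61, let-7i at 0.59, let-7j at 0.13 for IMAT minus SAT and 1 let-7 call for SAT minus VAT. With DESeq2 there were 88 calls, 3 let-7 calls for IMAT minus VAT, 47 calls for IMAT minus SAT and 63 calls, let-7g at -0.17, let-7h at -0.044, let-7i at -0.32, let-7j at -0.29 for SAT minus VAT. With median-ratio scaling there were 1 let-7 call, let-7g at -0.17, let-7h at -0.044, let-7i at -0.32, let-7j at -0.29 for SAT minus VAT. With no filter there were 26 calls for IMAT minus VAT, 11 calls, let-7g at 0.011, let-7i at 0.058 for IMAT minus SAT and 17 calls, 1 let-7 call, let-7g at -0.060, let-7i at -0.24, let-7j at -0.14 for SAT minus VAT. With the replicate number as a block there were 28 calls, no call for miR-9b-3p (-2.65, edgeR adjusted p = 0.076) for IMAT minus VAT, let-7f at -0.022, let-7h at -0.059 for IMAT minus SAT and 27 calls, 1 let-7 call, no call for let-7b (1.56, edgeR adjusted p = 0.075), let-7d at 0.17 for SAT minus VAT. With only the depots compared in the fit there were 26 calls, let-7g at 0.032 for IMAT minus VAT, let-7g at 0.056, let-7i at 0.073 for IMAT minus SAT and 1 let-7 call, let-7g at -0.081, let-7i at -0.23, let-7j at -0.21 for SAT minus VAT. With linked entries joined there were 1 let-7 call, let-7f at 0.0070, let-7g at 0.11 for IMAT minus VAT, let-7g at 0.099, let-7i at 0.11 for IMAT minus SAT and let-7i at -0.12, let-7j at -0.13 for SAT minus VAT. Without entries that have a zero beyond counting error there were 35 calls for IMAT minus SAT and let-7j at -0.011 for SAT minus VAT. Without IMAT 5 and VAT 4 there were 102 calls, 3 let-7 calls, let-7f at 0.0032 for IMAT minus VAT, 61 calls, 3 let-7 calls, let-7g at 0.095 for IMAT minus SAT and let-7d at 0.80, let-7g at -0.17, let-7i at -0.38, let-7j at -0.0013 for SAT minus VAT. Calls split into higher and lower as 25 and 19 (main), 25 and 28 (median-ratio scaling), 18 and 144 (library totals) and 57 and 6 (without muscle miRNAs) for IMAT minus VAT, as 12 and 10, 16 and 7, 7 and 124, and 29 and 4 for IMAT minus SAT, and as 24 and 17, 14 and 25, 19 and 14, and 15 and 13 for SAT minus VAT. With 1 library left out at a time, calls were 36 to 79, 15 to 43 and 25 to 48, highest without VAT 4 in all 3 comparisons, and let-7 calls 0 to 2, 0 to 1 and 1 to 2. The fold changes that turned then ran from -1.67 to 0.45 for let-7d in IMAT minus VAT, -0.75 to 0.80 for let-7d in SAT minus VAT, -0.29 to 0.83 for let-7f in IMAT minus SAT, -0.55 to 0.38 for let-7f in IMAT minus VAT; -0.59 to 0.14 for let-7f in SAT minus VAT, -0.46 to 0.10 for let-7g in IMAT minus SAT, -0.27 to 0.12 for let-7g in IMAT minus VAT, -0.17 to 0.52 for let-7g in SAT minus VAT; -0.029 to 0.47 for let-7h in IMAT minus SAT, -0.48 to 0.062 for let-7i in IMAT minus SAT, -0.36 to 0.047 for let-7i in IMAT minus VAT, -0.38 to 0.21 for let-7i in SAT minus VAT; -0.14 to 0.21 for let-7j in SAT minus VAT. The summed let-7 share was 11.7% in IMAT without muscle miRNAs in the total and 4.56% with linked entries joined, and ran from 1.63 to 2.67% in IMAT, 9.63 to 10.3% in SAT and 7.62 to 12.1% in VAT with 1 library left out. Replicate numbers showed no clear pairing: same-numbered libraries correlated at -0.24 to 0.19 in their deviations from the depot means, and 2 of 13 pairs were best with their own number. So few libraries cannot show whether same-numbered libraries share a fish, and the block rests on the number alone. Depth limits let-7j in IMAT 4 and the zero of let-7f in IMAT 3.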
